A study of Drosophila melanogaster with 3 samples.

Results

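Divergent promoters are stretches of the genome from which a pair of neighbouring genes is transcribed in opposite directions, so that both start sites lie close together, head to head. Peaks of GAGA factor were counted as divergent when their summit lay within 500 bp of start sites of at least 2 different protein-coding genes, with a minus-strand start site at the lower coordinate and a plus-strand start site above it. This rule found 859 of the 4900 peaks in the authors' thresholded list, called the optimal peaks here (17.5%, exact 95% binomial interval 16.5 to 18.6). The peaks come from chromatin immunoprecipitation and sequencing of whole embryos of Drosophila melanogaster, males and females pooled, from 0 to 24 h. All embryos came from the strain Trl-MiMIC-GFP, in which an intronic eGFP exon turns Trl into a GFP fusion gene, and an antibody against GFP recovered the tagged protein. There was 1 group with 3 biological replicates and no second condition, and whole embryos mix all cell types and stages of that window. Of the other optimal peaks, 1778 (36.3%) had start sites of 1 strand within 500 bp and are called one-direction promoter peaks. A further 9 had start sites of both strands in another order, and 2254 (46.0%) lay away from protein-coding start sites.

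GAGA factor is the zinc finger protein encoded by Trithorax-like. It binds GA-rich DNA and is known for keeping promoters and Polycomb or trithorax target sites open, many of them at developmentally regulated genes. Head-to-head genes in the fly are often broadly expressed ones, and their promoters often carry the DRE, the site of the transcription factor DREF, or Motif 1, the site of M1BP.

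The DNA between the start sites shows what the strongest of these peaks cover. The first set below is the 6 strongest peaks whose start sites lie 60 to 300 bp apart with no annotated transcript between them, on the 5 chromosome arms from which sequence is printed. All 6 lie on 3L or 3R. Each run is the plus strand of the dm6 reference (RefSeq Release 6) from the base after the minus-strand start site to the base before the plus-strand start site. Capitals mark GAGAG or its complement CTCTC, the core of the GAGA factor site, and the palindromic DRE, TATCGATA. The intervals are 3L:22878985-22879088 for Chro and Ssl1, 3R:15229409-15229664 for Art3 and mRpS10, and 3L:5139396-5139618 for Tcs5 and CHMP2B. They are 3L:9426759-9427009 for Atat and Shc, 3R:29736746-29736964 for CG7601 and CIA30, and 3R:25247515-25247657 for RpS27 and Nup37. None of the 6 runs holds GAGAG, and 1 of them, between Atat and Shc, holds the DRE.
Chro/Ssl1: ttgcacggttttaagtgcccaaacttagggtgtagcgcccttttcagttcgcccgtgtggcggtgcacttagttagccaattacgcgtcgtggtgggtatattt
Art3/mRpS10: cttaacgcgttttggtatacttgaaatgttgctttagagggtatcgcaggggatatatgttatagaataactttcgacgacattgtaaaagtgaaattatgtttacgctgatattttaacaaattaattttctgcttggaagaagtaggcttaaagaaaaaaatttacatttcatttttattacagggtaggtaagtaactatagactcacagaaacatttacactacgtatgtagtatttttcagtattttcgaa
Tcs5/CHMP2B: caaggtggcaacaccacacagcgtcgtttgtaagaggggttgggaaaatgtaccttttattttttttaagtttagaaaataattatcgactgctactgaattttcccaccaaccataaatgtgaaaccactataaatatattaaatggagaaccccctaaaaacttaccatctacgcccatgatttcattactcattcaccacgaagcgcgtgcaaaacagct
Atat/Shc: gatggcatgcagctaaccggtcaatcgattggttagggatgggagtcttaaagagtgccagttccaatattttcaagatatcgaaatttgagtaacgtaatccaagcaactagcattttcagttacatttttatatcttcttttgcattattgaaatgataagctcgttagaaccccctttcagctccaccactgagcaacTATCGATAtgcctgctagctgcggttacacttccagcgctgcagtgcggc
CG7601/CIA30: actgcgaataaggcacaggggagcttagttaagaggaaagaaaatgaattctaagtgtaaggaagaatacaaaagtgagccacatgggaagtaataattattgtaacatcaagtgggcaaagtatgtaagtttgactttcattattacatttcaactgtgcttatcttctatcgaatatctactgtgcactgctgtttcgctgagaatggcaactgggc
RpS27/Nup37: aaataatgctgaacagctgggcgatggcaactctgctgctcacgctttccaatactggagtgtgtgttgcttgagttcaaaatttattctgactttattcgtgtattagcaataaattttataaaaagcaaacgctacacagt

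The second set shows the opposite case, the 3 strongest such peaks whose run holds the longer repeat GAGAGAG, at ranks 930, 1076 and 2781 of 4900. The intervals are 3R:26875743-26875851 for Rb97D and ms(3)K81, 3L:3806460-3806709 for ntc and IntS10, and 3L:7381475-7381613 for SMSr and smid. The run between Rb97D and ms(3)K81 holds both motifs, and the one between SMSr and smid holds 3 copies of the GAGA core, 2 of them overlapping. These matches lie between the start sites but not always within 100 bp of the summit.
Rb97D/ms(3)K81: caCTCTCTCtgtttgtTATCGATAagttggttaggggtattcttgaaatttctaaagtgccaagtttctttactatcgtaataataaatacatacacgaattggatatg
ntc/IntS10: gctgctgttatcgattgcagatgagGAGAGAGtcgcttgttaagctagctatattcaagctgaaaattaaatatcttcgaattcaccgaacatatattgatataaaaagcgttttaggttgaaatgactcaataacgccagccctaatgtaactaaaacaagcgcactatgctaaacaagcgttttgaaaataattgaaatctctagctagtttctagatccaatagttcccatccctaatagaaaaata
SMSr/smid: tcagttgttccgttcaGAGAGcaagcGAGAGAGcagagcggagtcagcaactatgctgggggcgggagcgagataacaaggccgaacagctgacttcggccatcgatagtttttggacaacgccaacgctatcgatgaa

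The third set adds the next strongest peaks with a DRE between the start sites, beside RpS25 and CG4820 at 3R:11216288-11216534 (rank 197) and beside Gmd and CG3792 at 2L:4977024-4977311 (rank 315). Of 294 gene pairs whose run could be printed under these limits, 43 held GAGAG and 53 the DRE between the start sites.
RpS25/CG4820: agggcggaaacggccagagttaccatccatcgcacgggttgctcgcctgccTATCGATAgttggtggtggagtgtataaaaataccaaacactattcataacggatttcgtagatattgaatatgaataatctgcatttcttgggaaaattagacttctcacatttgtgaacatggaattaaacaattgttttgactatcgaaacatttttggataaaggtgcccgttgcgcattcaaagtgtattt
Gmd/CG3792: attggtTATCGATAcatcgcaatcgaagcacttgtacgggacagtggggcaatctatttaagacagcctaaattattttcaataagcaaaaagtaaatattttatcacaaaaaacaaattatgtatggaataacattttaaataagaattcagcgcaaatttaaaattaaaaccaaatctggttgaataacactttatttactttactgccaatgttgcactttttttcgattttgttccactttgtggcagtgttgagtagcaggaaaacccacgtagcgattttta

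The 12 strongest divergent peaks ranked between 6 and 47 among the 4900 optimal peaks, and their ranks in the replicate lists of 30000 peaks were close to these. The strongest covered 3L:22878695-22879096 (dm6) beside the gene of the chromodomain protein Chromator, Chro, and Ssl1, which encodes a subunit of the general transcription factor TFIIH. It ranked 7, 6 and 9 in replicates 1, 2 and 3, and its summit lay 104 bp inside the transcribed side of Chro, not between the start sites. The peak of Art3, an arginine methyltransferase gene, and mRpS10, a mitochondrial ribosomal protein gene, covered 3R:15229328-15229743 and ranked 10, 11 and 7. Its summit lay 123 bp from the Art3 start site and 134 bp from that of mRpS10. The peak of mRpS23 and CenG1A, an ArfGAP gene, ranked 12, 9 and 13. All 3 peaks were thus among the top 13 of every replicate.

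The next peaks lay between Pdrg1 and Pal1, an amidating lyase gene (ranks 15, 19 and 12), and between Tcs5, which encodes a kinase of the KEOPS complex, and CHMP2B, an ESCRT-III gene (24, 16 and 25). The Fbw5 and CG9147 peak ranked 22, 25 and 22. The peak of Atat, a tubulin acetyltransferase gene, and Shc, an adaptor gene of receptor tyrosine kinase signalling, ranked 39, 23 and 28. The other 5 peaks, beside CG8372 and CG8360, tank and CG12194, Stt3A and bves, CG5757 and CG5098, and CG7601 and CIA30, ranked between 26 and 60 in the replicates. Stt3A encodes the catalytic subunit of an oligosaccharyltransferase and CIA30 an assembly factor of respiratory complex I. None of the 12 had GAGAG within 100 bp of the summit, and the Atat and Shc peak had the DRE.

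**Figure D1:**
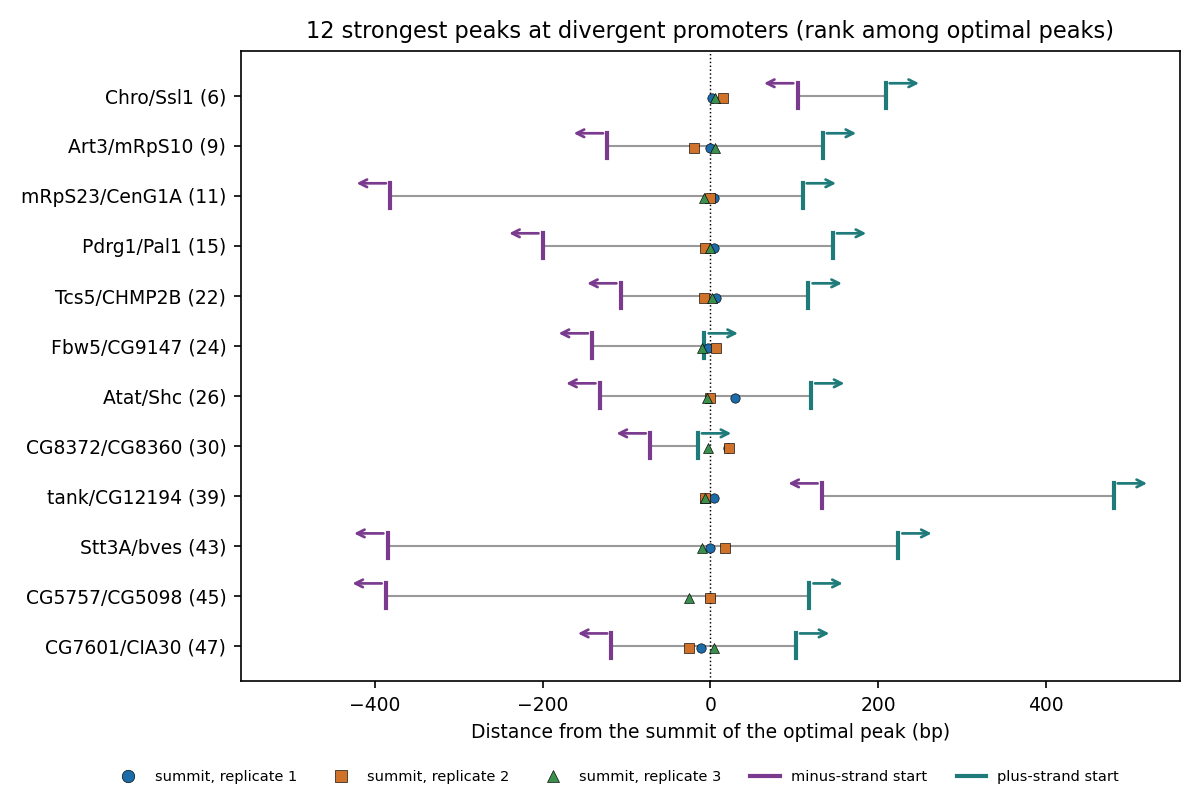
Start sites and summits at the 12 strongest divergent promoter peaks, with distance from the optimal summit in bp on the x axis and 1 gene pair per row, ranked from 6 to 47 among 4900 optimal peaks. Bars with arrows are the closest minus-strand and plus-strand start sites, and points are the summits in replicates 1 to 3, which may hide one another. Replicate summits lay within 30 bp of the optimal summit in all 12 rows, and in 8 rows the summit lay between the start sites.

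At the weak end, the peak of the histone chaperone genes Nph and Nlp had rank 4887 of 4900 and ranks 5455, 6646 and 4253 in the replicates. The peak of Septin2 and Srp72, a signal recognition particle gene, had rank 4897 and ranks 4506, 4786 and 4462. All 6 replicate ranks lie between 4253 and 6646.

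The 859 peaks had 800 different closest gene pairs, that is, pairs with the smallest summed distance to the summit, and these pairs held 1599 genes. A single peak lay at 741 pairs and 2 peaks at 59. In 819 peaks exactly 2 coding genes were in reach, in 36 there were 3, and the most was 10, at the pre-mod(mdg4) genes. Members at the same pair share their genes, and 4 members repeat the interval of another with a different summit. Peaks are therefore not independent, and binomial intervals cover counting error only.

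Divergent peaks were somewhat stronger than one-direction peaks. Their median rank in the optimal list was 2037, against 2463.5 for one-direction promoter peaks and 2614.5 for peaks away from start sites. A percentile here is the place of the overlapping peak in a replicate's list of 30000, with 100 the strongest and 0 for no overlap. The median percentile of divergent peaks was 93.4, 93.9 and 93.5 in replicates 1, 2 and 3, and that of one-direction peaks 92.5, 92.1 and 92.0. Divergent peaks were thus higher in 3 of 3 replicates, and the sets of 3 values did not overlap. The means were 93.6 ± 0.237 and 92.2 ± 0.248 (SD, n = 3), a difference of 1.43 ± 0.432 percentile points, with an exact two-sided sign-flip permutation p of 0.25, the smallest that 3 replicates allow. Optimal peaks were called from these same replicates, so all percentiles are high and their spread is small in part by construction.

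Nearly all peaks of both promoter classes were found again in the full replicate lists. Of the 859 divergent peaks 856, and of the 1778 one-direction peaks 1772, overlapped a peak in all 3 of them. A total of 643 divergent peaks (74.9%) overlapped one of the 4900 strongest peaks of every replicate. For one-direction peaks the latter share was 68.4% and for peaks away from start sites 65.2%. Replicate by replicate, the share found among the 4900 strongest was nearly equal in replicate 1 (88.94% of divergent and 88.92% of one-direction peaks). It was higher for divergent peaks in replicates 2 (89.1% and 84.8%) and 3 (90.5% and 85.9%). The median distance between the optimal and the replicate summit was 16.7 ± 2.08 bp for divergent and 17.0 ± 2.65 bp for one-direction peaks (SD, n = 3), a difference smaller than the spread between replicates. The lowest mean percentile, 55.6 ± 49.7 (SD, n = 3), was that of the peak beside l(2)34Fd and Rab14. It ranked 8666 and 1255 in replicates 1 and 2 and had no overlapping peak in replicate 3.

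Along the ranking, the divergent share fell from the strong to the weak end. In the strongest 10% of the optimal list 118 of 490 peaks were divergent (24.1%, exact 95% interval 20.4 to 28.1), and in the weakest 10% 66 of 490 (13.5%, 10.6 to 16.8). In the replicates' own 4900 strongest peaks the shares were 22.9% ± 0.612 and 12.4% ± 0.920 (SD, n = 3). The difference of 10.5 ± 0.850 percentage points had the same sign in 3 of 3 replicates (exact sign-flip permutation p = 0.25, the smallest possible). Among promoter peaks alone, divergent ones made up 38.4% in the strongest and 27.7% in the weakest 10%. Below the authors' threshold, 1005 of the remaining 25100 pooled peaks (4.004%) were at divergent promoters and 5322 (21.2%) at one-direction promoters.

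**Figure D2:**
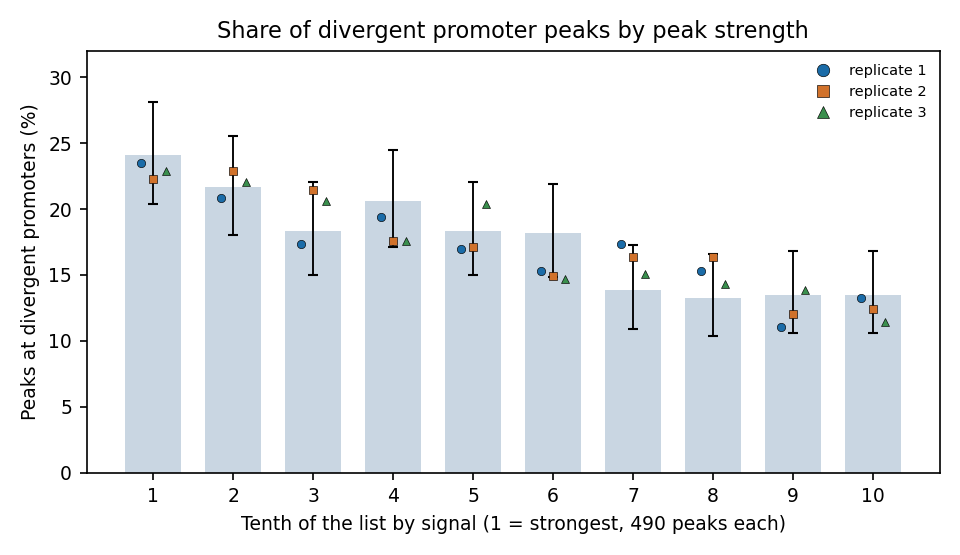
Share of peaks at divergent promoters (%, y axis) in 10 equal classes of the list by signal (x axis, 1 is the strongest, 490 peaks each). Bars are the optimal list with exact 95% binomial intervals, and points are the same classes of the 4900 strongest peaks of replicates 1 to 3. The bars run from 24.1% in the strongest to 13.5% in the weakest class.

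Positions relative to the paired start sites are a description, since the rule used these distances. The distance between the closest start sites had a median of 271 bp (quartiles 169 and 368.5, range 1 to 857). The summit lay a median of 66 bp from the nearer and 203 bp from the farther site. The nearer site was on the minus strand in 430 peaks and on the plus strand in 428. A total of 696 summits (81.0%, exact 95% interval 78.2 to 83.6) lay between the sites, 87 on the transcribed side of the minus-strand gene and 76 on that of the plus-strand gene. One-direction summits also lay mostly upstream, at 1383 of 1778 (77.8%) relative to their nearest start site.

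The rule itself favours positions between the sites, since both must lie within 500 bp of the summit, and the choice of the closest pair favours pairs that enclose it. Of the positions it allows at these pairs, 42.2% lie between the sites. In the replicates' top lists 78.9%, 79.3% and 80.9% of divergent summits lay there, against 41.9%, 43.0% and 43.3% of allowed positions. The difference was 36.9 ± 0.673 percentage points (SD, n = 3) with the window of 500 bp, 13.2 points with 250 bp and 48.5 points with 1000 bp, so its size follows the window. At pairs 0 to 99 bp apart 40.0% of summits lay between the sites (6.89% of allowed positions), and at pairs 200 to 299 bp apart 87.5% did (34.4% of allowed positions). From 500 bp upward every allowed position is between the sites.

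**Figure D3:**
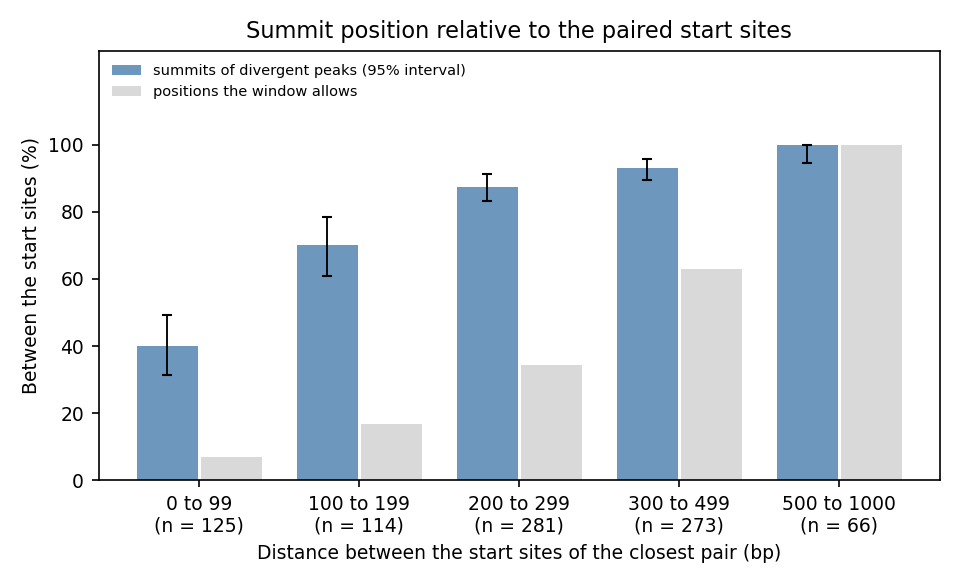
Share of divergent promoter summits between the paired start sites (blue, %, with exact 95% binomial intervals) and share of the positions allowed by the 500 bp window that lie there (grey), by distance between the start sites (x axis, bp, number of peaks in brackets). The blue bars exceed the grey ones up to 499 bp, with 40.0% against 6.89% in the shortest class, and both are 100% from 500 bp by construction.

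The shortest distance, 1 bp, was between Atg6, the fly counterpart of Beclin, and Pisd, a phosphatidylserine decarboxylase gene. That peak had rank 4833 and ranks 7991, 3126 and 7402 in the replicates. SerRS, which encodes seryl-tRNA synthetase, and CG17260 lay 8 bp apart, with rank 241 and replicate ranks 274, 194 and 285. CG9588 and the kinase gene Lkb1 also lay 8 bp apart, but the summit lay 356 bp from the nearer site. The longest distances were 857 bp between the kinesin gene sub and CG10931, 783 bp between the TRP channel gene pyx and CG33229, and 717 bp between CG2246 and CG31021. At the edge of the rule, the farther site was 500 bp from the summit at HSPC300 and CG3163 (rank 1299) and 499 bp at E(bx) and mthl14 (rank 2438). Just outside it lay the peaks of Mpc1 and CG42613 (503 bp, rank 1037) and of app and CG32100 (503 bp, rank 1450).

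Over the whole annotation, 2667 pairs of protein-coding genes had start sites head to head and at most 1000 bp apart. An optimal summit lay within 500 bp of both start sites at 863 of these pairs (32.4%). In the replicates' top lists the share was 31.6%, 32.1% and 31.8%. A further 755 pairs had such a summit only among the pooled peaks below the threshold, and 1049 had none in the pooled list. The peak share was highest at 200 to 299 bp, where 267 of 544 pairs had a peak (49.1%, exact 95% interval 44.8 to 53.4; 48.1% ± 1.17 in the replicates). It was 37.9% at 0 to 99 bp, 34.3% at 100 to 199 bp and 38.02% at 300 to 499 bp. The interval of the 200 to 299 bp class did not overlap those of its neighbours. At 500 to 1000 bp it was 8.74%, where few positions lie within reach of both sites. Each pair has fewer qualifying positions as the distance grows. Per kb of such positions, the classes held 0.402, 0.400, 0.657, 0.618 and 0.295 pairs with a peak. Positions were counted at the closest start sites of each pair only. A peak could lie at any of its start sites, so pairs with several sites could have more positions than counted.

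**Figure D4:**
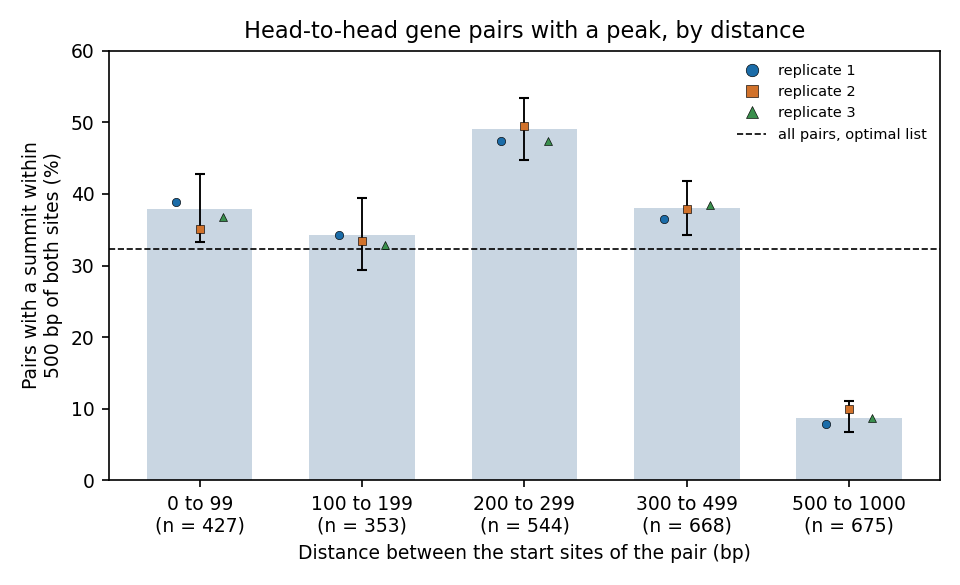
Share of head-to-head gene pairs with a summit within 500 bp of both start sites (%, y axis) by distance between the sites (x axis, bp, number of pairs in brackets). Bars are the optimal list with exact 95% binomial intervals, points are the 4900 strongest peaks of each replicate, and the dashed line is the share over all pairs (32.4%). The class of 200 to 299 bp stands highest at 49.1%.

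Genes in head-to-head pairs had peaks at their promoters more often than other genes. Of all 13945 protein-coding genes, 3193 (22.9%) had at least 1 start site with an optimal summit at most 500 bp away. Among the 5052 genes of head-to-head pairs it was 1948 (38.6%), and among the other 8893 it was 1245. A summit between paired sites counts for both genes. The side downstream of a start site, facing away from the paired site of the partner, was therefore compared as well. Where a gene has several start sites, a position downstream of 1 of them can still lie upstream of another. On the downstream side 5.18% of all genes had a summit. The share was 8.43%, 7.74% and 8.12% of paired genes in replicates 1, 2 and 3, and 4.44%, 3.89% and 3.94% of the others. The paired genes were higher in 3 of 3 replicates, by 4.01 ± 0.166 percentage points (SD, n = 3; exact sign-flip permutation p = 0.25, the smallest possible). With 1 start site per gene the difference was 2.60 points, and in the stronger part of the lists (2450 peaks) it was 2.54.

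Paired and other genes with peaks also differed in length, whose part in this difference was not tested, and in the number of annotated start sites. Genes of pairs with a peak had a median length of 2490 bp, and genes of pairs without one 2183 bp. All 8893 genes in no pair had a median length of 2080 bp, and those of them with a promoter peak 5892 bp. Of genes of pairs with a peak 64.6% had 1 annotated start site, against 50.4% of unpaired genes with a peak and 76.4% of all unpaired genes.

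The sequence at divergent summits differed from that at other promoter peaks. GAGAG stood within 100 bp of 138 of 859 divergent summits (16.1%, exact 95% interval 13.7 to 18.7), against 742 of 1778 one-direction summits (41.7%, 39.4 to 44.1) and 31.5% of summits away from start sites. Windows of the same length centred on all 19252 usable coding start sites held it in 24.99%. In the top lists of replicates 1, 2 and 3 the divergent share was 15.7%, 16.4% and 15.6%, and the one-direction share 41.04%, 40.1% and 42.4%. The values of the classes lay far apart in every replicate, with a difference of -25.3 ± 1.55 percentage points (SD, n = 3; exact sign-flip permutation p = 0.25, the smallest possible). The longer repeat GAGAGAG, which contains GAGAG, was present at 13 divergent summits (1.51%), at 18.3% of one-direction summits and in 4.69% of the windows at all start sites. Motifs were read from the reference on both strands, so the replicate spread reflects only which peaks entered each list.

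Divergent summits also held GAGAG less often than their own flanks. Windows of the same length at 1000 bp on each side, kept only where no optimal peak overlapped, held it in 21.5% (exact 95% interval 19.6 to 23.6), and those of one-direction peaks in 23.8%. GAGAG did not set apart the head-to-head pairs with a peak, either. It stood within 100 bp of the midpoint in 14.9% of pairs with a peak (12.6 to 17.5) and in 14.4% of pairs without one (12.8 to 16.1), and these intervals overlap. Pairs with a peak had a median distance of 257 bp between start sites and pairs without one 352.5 bp. The part of this distance in the midpoint shares was not tested. The nearest copy of GAGAG lay within 500 bp of 527 of the 859 divergent summits, at a median distance of 218 bp. Copies did not rise toward the summit, with 0.955 and 1.33 per kb in the 50 bp on either side of it. In the outermost 50 bp of that window there were 1.61 and 1.58 per kb. The share within 500 bp was not counted for the other classes.

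Base composition also differed between the 2 promoter classes. The median GC content within 100 bp of the summit was 36.3% at divergent, 41.8% at one-direction and 37.3% at summits away from start sites. The last class was thus near divergent peaks in GC content, but had GAGAG at 31.5% of summits, against 16.1%. AGGAG, with the bases of GAGAG in another order, was present at 9.66% of divergent and 15.0% of one-direction summits, and at 17.9% of all start sites. In the flanks of divergent peaks it was present in 42.1%, so this control word differed between flank and summit by more than GAGAG did. Among windows of 35 to 45% GC alone, GAGAG stood at 15.2% of divergent and 30.6% of one-direction summits, and the replicate difference was -15.1 ± 1.34 percentage points (SD, n = 3). When one-direction peaks were limited to summits upstream of the nearest start site, their GAGAG share was 42.3%. Both subsets were chosen after the shares had been seen.

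The DRE showed the reverse order. TATCGATA was present at 115 divergent summits (13.4%, exact 95% interval 11.2 to 15.8), at 5.68% of one-direction summits, at 0.311% of summits away from start sites and in 6.45% of windows at all start sites. The replicate values were 13.4%, 13.1% and 12.9% for divergent and 5.72%, 5.39% and 5.17% for one-direction peaks. The groups did not overlap, and the difference was 7.70 ± 0.0102 percentage points (SD, n = 3; exact sign-flip permutation p = 0.25, the smallest possible). Among windows of 35 to 45% GC the shares were 16.9% and 8.71%. The flanks of divergent peaks held the DRE in 0.363%. At the midpoints of head-to-head pairs it was present in 11.2% of pairs with a peak (9.21 to 13.5) and in 7.26% of pairs without one (6.11 to 8.56), intervals that do not overlap. These pairs also differ in the distance between start sites (median 257 and 352.5 bp), whose part in this difference was not tested. By distance between start sites, the DRE stood at 18.4% of peaks at 0 to 99 bp, 18.42% at 100 to 199 bp, 12.5% at 200 to 299 bp, 12.1% at 300 to 499 bp and 4.55% (3 of 66) at 500 to 1000 bp. The intervals of the first and last class, 12.04 to 26.3 and 0.947 to 12.7, overlap.

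**Figure D5:**
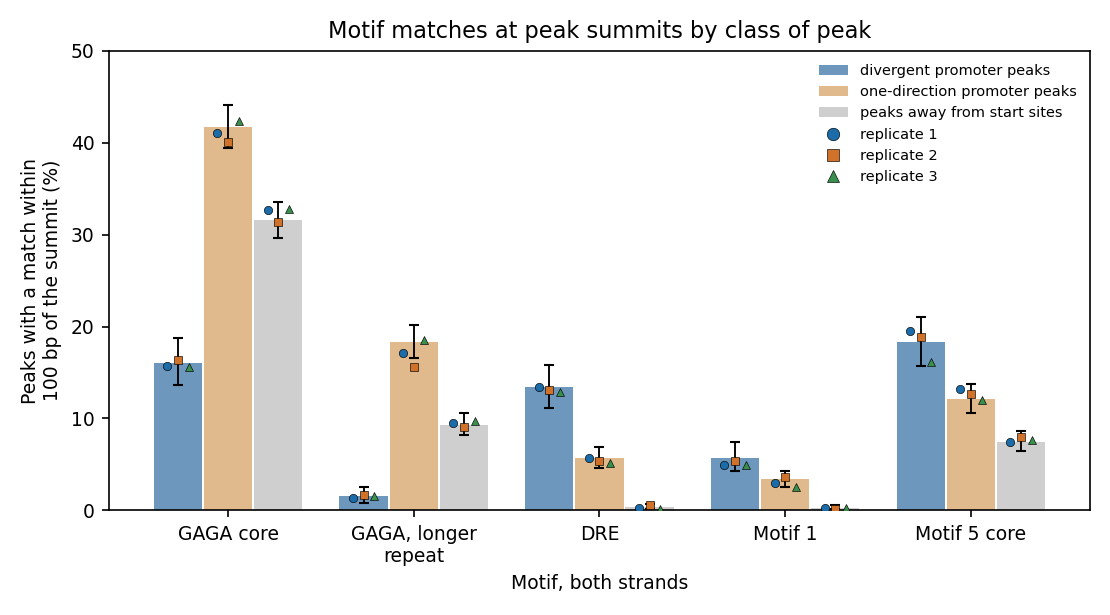
Share of peaks with a motif match within 100 bp of the summit (%, y axis) for divergent, one-direction and other peaks. Bars are the optimal list with exact 95% binomial intervals, and points are the 4900 strongest peaks of each replicate. The GAGA core is at 16.1% in divergent and 41.7% in one-direction peaks, and the DRE at 13.4% and 5.68%.

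Other promoter motifs were compared in the same windows. ATCGAT, the core shared by the DRE and some BEAF-32 sites, stood at 27.01% of divergent, 14.1% of one-direction and 16.4% of all start site windows. GGTCACACT, the core of Motif 1, stood at 5.70%, 3.37% and 4.42% of these windows. Its intervals for divergent (4.25 to 7.47) and one-direction peaks (2.58 to 4.32) overlap. CAGCTG, an E-box of Motif 5, was present at 18.3%, 12.1% and 13.4%, and TATAAA, the core word of the TATA box, at 34.2%, 21.4% and 26.9%. TATAAA was counted at any position in the window, so these matches are not shown to be TATA boxes. Its share at equal GC content was not tested, and median GC was 36.3% at divergent and 41.8% at one-direction summits. TCAGT, an initiator core, was present at 28.8% of divergent, 36.7% of one-direction and 43.4% of all start site windows. CACTG, taken up because it had the highest ratio of peaks to flanks among 5-base words in earlier work on these data, stood at 44.9%, 45.6% and 36.9%. The motifs were also counted at the midpoints of head-to-head pairs, with the same untested difference in distance between pairs with and without a peak. In pairs with and without a peak, ATCGAT was found in 25.6% and 19.1% and CAGCTG in 15.4% and 11.4%, each with intervals that do not overlap. CACTG was found in 34.99% and 28.1%, also with intervals that do not overlap. It was chosen from peaks of these same data, so a higher share at pairs with a peak was favoured in advance. Motif 1 was found in 3.94% and 4.55%, TATAAA in 36.8% and 41.2%, and TCAGT in 29.9% and 32.1%, with intervals that overlap and a lower share at pairs with a peak.

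Most divergent peaks had neither of the main motifs, and these were not the weaker ones. A total of 621 (72.3%) had neither GAGAG nor TATCGATA within 100 bp, and 15 had both. The share with neither was not counted in the other classes, so it is not shown to be particular to divergent peaks. Divergent peaks with neither had a median rank of 1929 and a median percentile of 94.0 ± 0.212 (SD, n = 3). Peaks with GAGAG had a median rank of 2330 and a percentile of 92.6 ± 0.549, and peaks with the DRE 2236 and 92.3 ± 0.503. In every replicate the value without either motif was above both others.

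The members were next described by what their genes do, for 17 lists of gene families. The counts are descriptions without a test, and both genes of a pair count once each. A divergent peak, meaning an optimal summit within 500 bp of both start sites of a head-to-head pair, was present at 1649 of 13945 protein-coding genes (11.8%) and at 32.6% of the genes in such pairs. Mitochondrial ribosomal protein genes had one at 32 of 73 (43.8%), with 29, 29 and 30 in the top lists of replicates 1, 2 and 3. Of the 34 such genes with any promoter peak, 32 had a divergent one, against 1649 of 3193 (51.6%) over all genes. After mRpS10 and mRpS23 the strongest were mRpL23, at rank 68 with replicate ranks 95, 56 and 62, and mRpL34 at rank 274. None of the 32 genes had the DRE at its strongest divergent summit, and 5 had GAGAG. Over all 1649 genes with a divergent peak, 231 had the DRE there and 261 GAGAG.

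Cytosolic ribosomal protein genes had a divergent peak at 32 of 92 (34.8%), with 32, 30 and 34 in the replicates. The strongest lay at RpS27 (rank 48, replicate ranks 40, 49 and 63), RpL7 (54, with 45, 71 and 55), RpL32 (86, with 104, 77 and 107) and RpL34b (106, with 99, 115 and 102). The median best rank of the 32 genes was 516, against 1929 for all genes with a divergent peak. Of them 5 had GAGAG and 8 the DRE. The list was made by symbol and holds RpLP0-like and RpL7-like among the 32, relatives named after ribosomal proteins rather than known subunits of the ribosome, and RpL7-like is 1 of the 5 with GAGAG. Another 37 had only one-direction promoter peaks, at a median rank of 1083, of which 3 had GAGAG and 12 the DRE. Over all genes, GAGAG stood at the strongest divergent summit of 261 of 1649 genes and at the strongest summit of 615 of 1531 genes with one-direction peaks only. For the DRE these counts were 231 of 1649 and 99 of 1531.

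Other lists of broadly used genes stood above the 11.8% of all genes. Nucleosome remodellers and FACT had a divergent peak at 8 of 18 (44.4%), led by Ino80, the ATPase of the INO80 complex, at rank 263 with replicate ranks 261, 316 and 238, followed by Mi-2 and Chd1. Trithorax group genes, which maintain active states, had one at 8 of 22 (36.4%), led by brm at rank 764 with replicate ranks 627, 1149 and 655, and none of the 8 had GAGAG. Splicing genes had one at 12 of 36 and general transcription genes at 21 of 83, led by the Mediator gene MED30 at rank 114 and the RNA polymerase gene Polr2H at rank 262. Aminoacyl-tRNA synthetases had one at 8 of 32, and no such gene had only a one-direction peak. Over all genes with any promoter peak, 51.6% had a divergent one. The oxidative phosphorylation list had 18 of 90, DNA replication 8 of 34, the proteasome 8 of 48, the cell cycle list 7 of 39 and translation factors 8 of 53. These lists also held more genes in head-to-head pairs than the 36.2% of all genes, at 79.5% for mitochondrial and 59.8% for cytosolic ribosomal protein genes and 88.9% for remodellers.

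Read against the 32.6% of all paired genes, several of these lists were near the background. Of their genes in pairs, 29.6% of translation factors, 30.8% of the proteasome, 34.8% of DNA replication, 36.4% of synthetases, 36.8% of both cell cycle and general transcription, 38.7% of splicing and 40.0% of oxidative phosphorylation genes had a divergent peak. Among remodellers in pairs 8 of 16 had one. The shares were 55.2% for mitochondrial (32 of 58) and 58.2% for cytosolic ribosomal protein genes (32 of 55), and 61.5% for trithorax group genes (8 of 13).

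Of the Rab list, 10 of 31 genes (32.3%) had a divergent peak, or 58.8% of the 17 in pairs. Over all genes these shares were 11.8% and 32.6%. Among the 10 were Rab3GAP1, which encodes no Rab GTPase, and Rab30 at rank 934. The DRE was present at 6 of the 10 and GAGAG at 3, against 231 and 261 of all 1649 genes with a divergent peak. Polycomb group genes, which maintain repressed states, had a divergent peak at 4 of 21 (19.0%). That is 36.4% of the 11 in pairs, near the 32.6% of all paired genes. The 4 genes were Sfmbt, Su(z)12, Jarid2 and E(z), at ranks 893, 1509, 1675 and 1710. Of the insulator and chromatin architecture list, 6 of 24 (14 in pairs) had one. Besides Chro they include Dref, which encodes the DRE-binding factor and shares its promoter with RpL13, at rank 497 with replicate ranks 439, 493 and 632. Its summit had neither GAGAG nor the full DRE, but it had the core ATCGAT. Cp190, an insulator protein gene, had rank 517 and replicate ranks of 1001, 525 and 324, with the DRE. M1BP, which encodes the Motif 1 factor, had rank 3212 and no Motif 1 match within 100 bp.

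Few developmental and tissue-specific genes had a divergent peak, and few lay in head-to-head pairs. Of 51 embryonic patterning genes, 3 lay in a head-to-head pair, and 1 had a divergent peak, smo, which encodes the Hedgehog signal transducer Smoothened. That is 33.3% of the patterning genes in pairs, against 32.6% of all paired genes. The peak ranked 5266, 1145 and 3661 in the replicates, and its summit had the DRE and Motif 1 but no GAGAG. A further 10 patterning genes had only one-direction promoter peaks, and 8 of these had GAGAG. Of 355 genes for tissue-specific products such as receptors, cuticle proteins and seminal fluid proteins, 43 lay in a pair and 2 had a divergent peak (4.65% of those in pairs). These were Sfp26Ad, opposite Gpdh1 at rank 377, and Ir60e, opposite CG13585 at rank 1850. At Sfp26Ad the summit lay 377 bp from its start site and 38 bp from that of Gpdh1.

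In 8 gene pairs both genes were on a list. The strongest of these joined RpL28 and the translation initiation gene eIF1 (rank 293, replicate ranks 233, 295 and 462) and Dref and RpL13. The others joined Mi-2 and Prp3, MED7 and Cap-H2, RPA1 and Mcm2, Cdk1 and mRpS7, mRpL21 and rept, and trr and mRpL16, at ranks from 1276 to 3720. The RPA1 and Mcm2 pair, with replicate ranks of 1596, 3170 and 1235, was the only one with both genes on the same list, that of DNA replication.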

How the data were processed

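Peaks were measured by ChIP-seq in 3 biological replicates of 1 group, numbered as in the labels, with chromatin sonicated to between 200 and 800 bp per the labels. The authors deposited a list of 30000 peaks per replicate, a pooled list and a list thresholded by IDR (irreproducible discovery rate), on dm6. The signal value of each peak and its summit offset are the authors' deposited values. For the signal scale, the caller and the aligner, nothing was given in the sources used here, so signal served only to rank peaks within a list. Read totals are not in these lists, so the depth is unknown. The control and the dm3 lists were not used here. The 4900 optimal peaks were the 4900 strongest pooled peaks.

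Start sites of all transcripts of 13945 protein-coding genes on 6 arms came from Ensembl release 115, and sequence from the RefSeq Release 6 genome (none is printed from arm 2R). Replicate peaks were matched by an overlap of at least 1 bp, and the strongest counted. Replicates were compared over their own 4900 strongest peaks, which are mostly shared. Tests were exact two-sided sign-flip permutation tests over 3 replicates, and intervals were exact 95% binomial (Clopper-Pearson) intervals. No test ran over peaks or genes, which are not replicates. Members, gene lists and motifs were chosen with earlier results of these data known. Genes were named by a rule: the 12 strongest, the 3 weakest (1 of them is not reported here), the 3 shortest and 3 longest distances, up to 4 members per list by rank, and pairs with printed sequence. Genes at the edge of the rule, in pairs with both genes on a list, at Rab14 and M1BP, and partners of named genes were named with their values known. Alternatives tried were the 500 bp rule at 250 and 1000 bp, the motif search within 50 and 250 bp, 1 start site per gene, repeated intervals once, summit matching within 100 bp, the stronger 2450 peaks, each replicate left out, and 2 motif subsets added later. Code was tested on simulated data (Python 3.11.15, numpy 2.4.6, scipy 1.17.1).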

Additional observations from a re-analysis of the deposited data

How the results depend on the processing

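All 6 differences between divergent peaks and their comparison kept their direction under every alternative run (57 in all). The percentile difference ran from 0.929 (window of 1000 bp) to 1.81 points, and the decile difference from 8.78 to 11.3 percentage points. The GAGAG difference ran from -28.7 (motif window of 250 bp) to -15.1 points (35 to 45% GC), with -17.3 for a motif window of 50 bp. The DRE difference was 4.28 with a motif window of 50 bp and 13.7 with 250 bp. The share of summits between the start sites, a description because the rule used these distances, exceeded allowed positions by 13.2 points with a window of 250 bp and 48.5 with 1000 bp. The downstream difference of paired genes was 2.54 in the stronger 2450 peaks, and counting both sides gave 11.2 points at 100 bp and 23.9 at 500 bp. The causes of these shifts were not tested. Leaving out any replicate kept every sign, with a smallest possible exact permutation p of 0.5. Every difference was taken within a replicate, and with 1 group there are no groups to pair by replicate number. Summits, shares of 1 peak list and genes of 1 pair are not independent. The exact sign-flip permutation test used here cannot go below 0.25 with 3 replicates, and with unknown depth a pair without a peak cannot be called unbound.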

Other observations

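Divergent peaks made up 859 of 2646 promoter peaks over all arms (32.5%). They made up 37.6% of promoter peaks on 3R (248 of 660, exact 95% interval 33.9 to 41.4) and 26.5% on X (113 of 426, 22.4 to 31.0), intervals that do not overlap. On 2L, 2R and 3L the shares were 31.7%, 30.1% and 34.2%. The share of genes in head-to-head pairs was close on these arms, from 35.7% on X to 36.96% on 2L. Of the head-to-head pairs, 265 of 683 on 3R (38.8%, 35.1 to 42.6) and 114 of 403 on X (28.3%, 23.9 to 32.96) had a peak, against 32.4% over all arms. On 2L, 2R and 3L the shares of pairs with a peak were 30.3%, 29.3% and 32.8%, so X was close to 2R and 2L. Arm 4 held 1 divergent peak, between CG11076 and ATPsynbeta, which encodes a subunit of ATP synthase, at rank 3330. No replicate test was made for the arms, which were compared after their values were seen.

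The divergent peak with the most coding genes in reach lay at mod(mdg4) on 3R, whose transcripts are known for trans-splicing with exons from both strands. There 10 annotated protein-coding genes had start sites within 500 bp of the summit, and the closest pair was pre-mod(mdg4)-E and pre-mod(mdg4)-Y. The peak had rank 455 of 4900 and ranks of 504, 610 and 341 in replicates 1, 2 and 3. These pre-mod(mdg4) entries are separate annotation units of 1 locus, so this peak meets the rule without being a promoter of separate genes in the usual sense.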
